A study of Mus musculus with 48 samples.

Results

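The hippocampal m6A peaks of trained wild-type (WT) mice were compared between 8 and 5 months of age. N6-methyladenosine (m6A) was mapped by MeRIP-seq, in which fragmented RNA is immunoprecipitated with an antibody against m6A and sequenced beside its input. Of the 48 libraries of the series, 24 were immunoprecipitated (m6A-IP), and 6 of these make up the comparison: animals TR-2175, TR-2209 and TR-2216 at 5 months (WT_tr5) and animals TR-220, TR-230 and TR-246 at 8 months (WT_tr8). The members were chosen by their labels alone, and each library came from the hippocampus of 1 mouse. All 6 were HdhQ7/7 males on a C57BL/6 background that were killed 30 min after training in an object location task, a spatial exploration test. The other groups used here for reference were untrained (naive) WT mice and trained HdhQ7/Q111 (KI) mice, a knock-in with an expanded CAG tract in 1 copy of the mouse huntingtin gene, each at 5 and 8 months with 3 animals. The comparison asks which m6A sites differ with age in mice without the mutation after the same training. All 24 peak lists name the same sequencing lane, which does not give the batch of immunoprecipitation or library preparation. A difference in such a batch cannot be told apart from age here.

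m6A is written on mRNA by a methyltransferase complex built around METTL3 and METTL14, removed by the demethylases FTO and ALKBH5, and read by YTH domain proteins that act on splicing, export, translation and decay. It favours the DRACH sequence context, of which GGAC is the commonest core, and lies mainly in long internal exons and around stop codons, while short internal exons bounded by exon junction complexes carry little of it. In the hippocampus it marks many transcripts of synaptic proteins and is known for its part in memory formation. Since whole hippocampus was used, fewer cells of a type and less RNA per cell cannot be told apart.

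The sequences below show the strand of the transcript around the GGAC nearest to the strongest summit, within 100 bases of it. They are given for some of the regions named in the comparison by age that hold such a GGAC. Of the 8 regions named for calls at 8 months only, 4 had no GGAC within this distance (Enpp4, Frmd4a, Odz4 and Jakmip1), and that of B4galnt4 lay outside the called region and is not shown. None was found for Cenpf, Arvcf, Zc3h3 and Wdr19 either. The GGAC of D16Ertd472e is not shown, and the regions of Nol4 and Arhgap26 were not searched. Capitals mark the GGAC nearest to the summit, and Hlx holds a further one in lower case. The first set was called in all 3 animals at 8 months and in none at 5 months: Map3k10 on the minus strand of chr7:28450137-28450165, Pcnt on the minus strand of chr10:75881221-75881249 and Plcl1 on the plus strand of chr1:55808113-55808141, all in mm9 coordinates.
Map3k10: gaagcctgaggtGGACtgtgccatcaccc
Pcnt: cttgcgtagtgtGGACgctgagggcctgc
Plcl1: ctacctgtacagGGACaaggagacctgct
The second set was called in all 3 animals at 5 months and in none at 8 months: Pkia (plus strand, chr3:7369538-7369566), Aplf (minus strand, chr6:87596294-87596322) and Zdhhc4 (minus strand, chr5:144090445-144090473).
Pkia: gaacacacacgtGGACacatatacacaag
Aplf: aaacatagtaaaGGACccagatgtggata
Zdhhc4: caccatgcgtctGGACcccggtgtgggcg
The third set was called in all 6 animals and had the lowest p-values for a difference in enrichment, without passing the test: Diexf (minus strand, chr1:194946680-194946708), Phb2 (plus strand, chr6:124666749-124666777), Fam174b (plus strand, chr7:80921508-80921536) and Hlx (minus strand, chr1:186551789-186551817). Arc (minus strand, chr15:74501534-74501562) and Bdnf (plus strand, chr2:109563629-109563657) are added as activity-regulated transcripts with a peak in every animal.
Diexf: gaattcttaccgGGACctgttctaccctg
Phb2: gcatcatgtgatGGACttttctgtatctg
Fam174b: tcctctcaccatGGACtgaagcacagtgg
Hlx: gcaggcgcagaaGGACaaggacaaggaag
Arc: ttttgccaactaGGACttgagctggggct
Bdnf: gtaaacgtccacGGACaaggcaacttggc
A GGAC was found on the transcribed strand within 100 bases of the strongest summit in 61.1% of the 1063 regions of a single gene that were called at 8 months only, in 68.9% of the 12388 called in all 6 animals and in 59.9% of all 39646. In a 50 bp window around the summit these shares were 19.7, 28.4 and 22.3% in the same order. The 8-month only regions thus lay below all regions there. A match of these letters describes the window and does not mark a methylated base.

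The trained WT mice had more and narrower m6A peaks at 8 than at 5 months. At 5 months animal TR-2175 had 26795 peaks, animal TR-2209 had 22601 and animal TR-2216 had 27906. At 8 months animal TR-220 had 32937, animal TR-230 had 37231 and animal TR-246 had 43557. The 3 older mice thus lay above the 3 younger, with means of 37908 ± 5342 and 25767 ± 2798 (SD, n = 3 each) and a ratio of 1.47 (2-sided exact permutation test, p = 0.1, the smallest that 3 against 3 animals allow; adjusted p = 0.233 over 14 values). The number of reads behind each list is not in the peak lists, so the depth is unknown and counting intervals cannot be given.

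The median peak width was 476, 427 and 369 bp in animals TR-2175, TR-2209 and TR-2216, and 338, 364 and 233 bp in animals TR-220, TR-230 and TR-246. The ages did not overlap (424 ± 53.6 against 312 ± 69.4 bp, exact permutation p = 0.1, adjusted p = 0.233), and without TR-246 the difference was -73 in place of -112 bp. The shortest peak of each list, which the peak caller by default sets from the fragment length it estimates, was 254, 218 and 174 bp at 5 months and 152, 177 and 91 bp at 8 months, and its part in the number and width of peaks was not tested. In total the peaks covered 17.1, 13.1 and 14.1 Mb at 5 months and 16.1, 19.9 and 16.4 Mb at 8 months (exact permutation p = 0.3; mean difference 2.66 Mb, or 1.44 without TR-230), so the covered length overlapped between the ages. To give each list the same length, the 22601 peaks with the best q-value were also taken from each (equal-length lists). Their median width was 455 ± 58.9 bp at 5 months and 430 ± 63.1 bp at 8 months, with overlap. Their median fold enrichment was 5.14 ± 0.496 and 5.81 ± 0.225, without overlap. The cut dropped no peak of TR-2209 and more from longer lists, so this enrichment difference in part reflects list length. The median fold enrichment of all peaks, a ratio of m6A-IP over input, was 4.84 ± 0.265 at 5 months and 4.83 ± 0.0945 at 8 months.

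**Figure D1:**
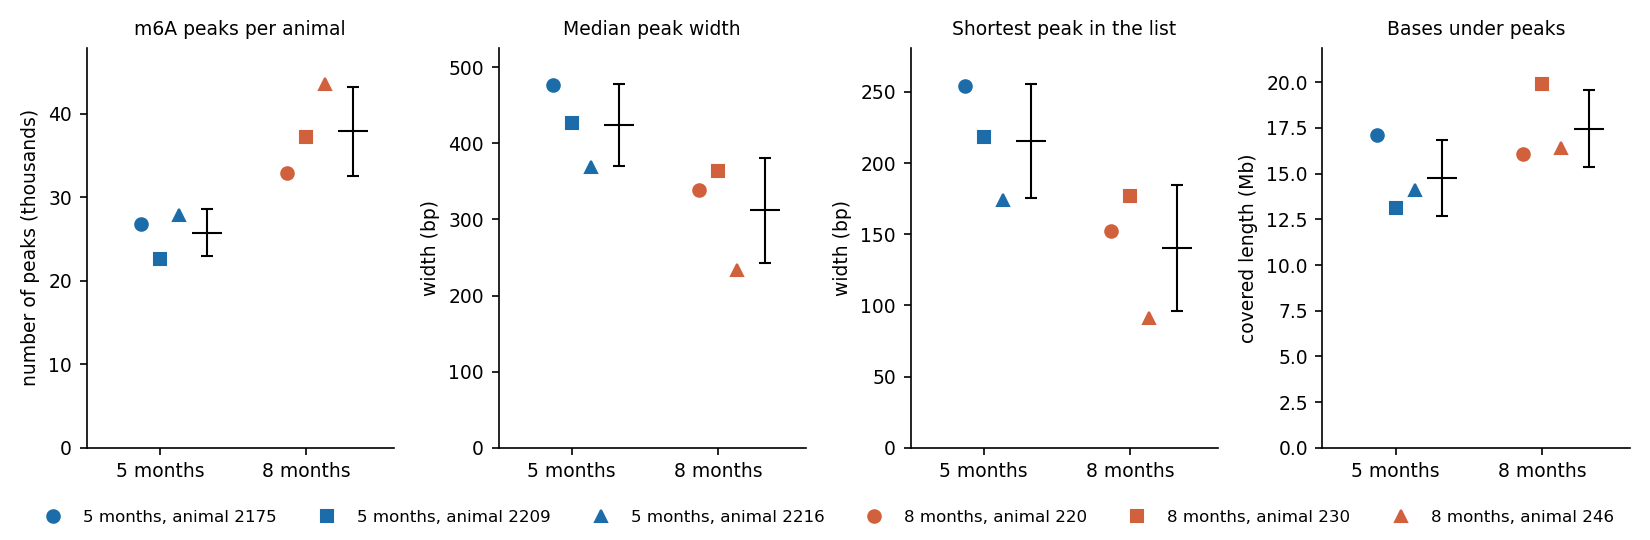
Number of m6A peaks (in units of 1000), median peak width (bp), shortest peak (bp) and bases under peaks (Mb) of each trained WT animal at 5 and 8 months; symbols are animals, and the bar with whiskers is the mean ± SD of 3 animals. The number of peaks (22601 to 27906 against 32937 to 43557) and the median width do not overlap between the ages, while the shortest peak and the covered length do.

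The added peaks were spread over all parts of the transcript. Mean numbers of summits at 5 and 8 months were 8640 ± 504 and 12148 ± 2423 in the coding sequence (CDS), 4881 ± 568 and 7007 ± 664 in 3'UTRs, 1320 ± 204 and 1892 ± 291 in 5'UTRs and 6005 ± 1354 and 9209 ± 1420 in introns. As shares of all summits, the CDS held 30.7, 40.7 and 30.4% at 5 months and 30.4, 31.4 and 33.9% at 8 months (exact permutation p = 0.8). Animal TR-2209 stood above the other 5 here, and without it the mean difference was 1.31 percentage points in place of -2.07. The 3'UTR held 17.7, 19.4 and 19.7% against 20, 17.9 and 17.8% (p = 1), and introns 23.7, 19.9 and 25.6% against 23.3, 25.5 and 24% (p = 0.7, both exact permutation tests). Shares of 5'UTRs and of positions outside protein-coding genes overlapped as well (exact permutation p = 0.9 for each).

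Within exons, the older mice had a smaller share of summits at the classical m6A positions. Of the summits in exons of the longest coding transcript, 22.3, 22.6 and 22.4% lay in internal exons of at least 400 bp at 5 months, and 20.1, 18.3 and 16% at 8 months. The 3 older animals lay below the 3 younger, whose own spread was small (22.4 ± 0.146 against 18.1 ± 2.07%, exact permutation p = 0.1, adjusted p = 0.233). In the equal-length lists the ages still did not overlap (22.8 ± 0.195 against 20.6 ± 1.26%). Summits within 200 bp of the stop codon made up 29.7, 27.4 and 28.8% at 5 months and 26.6, 25.4 and 20.8% at 8 months (exact permutation p = 0.1), again without overlap, but in the equal-length lists the ages overlapped (28.9 ± 1.27 against 26 ± 2.36%). Without TR-246 the near-stop difference was -2.62 in place of -4.37 percentage points. The last exon held 61.3, 57.2 and 61.9% against 58.1, 54.2 and 48% (exact permutation p = 0.2), with a mean difference of -6.67 percentage points, or -3.95 without TR-246. Animal TR-246, with the most and the narrowest peaks, was lowest in all 3 shares.

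**Figure D2:**
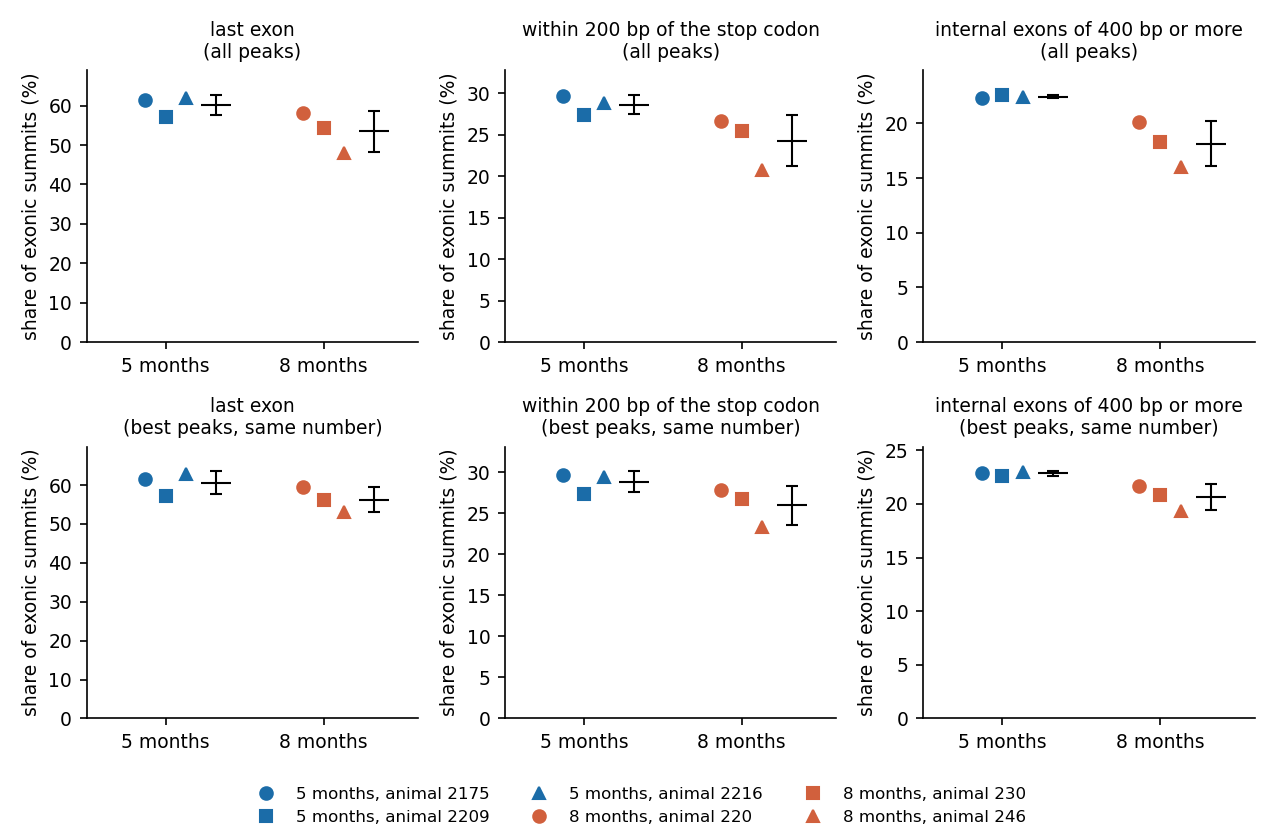
Share of exonic summits (%) in the last exon, within 200 bp of the stop codon and in internal exons of at least 400 bp, per trained WT animal, for all peaks (top) and the equal-length lists (bottom); the bar with whiskers is the mean ± SD of 3 animals. The share in long internal exons is 22.3 to 22.6% at 5 months and 16 to 20.1% at 8 months, and the ages do not overlap in either row of panels for it.

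The other animals of the series gave these values for the share in long internal exons: 21.2 ± 0.945 and 18.5 ± 3.31% at 5 and 8 months in naive WT mice, and 19.7 ± 1.22 and 18.6 ± 2.66% in trained KI mice. The means of this share at 8 months were thus close in the 3 kinds of mice, and that of trained WT mice at 5 months was the highest. The last exon held 61.1 ± 2.11 and 52.9 ± 7.28% at 5 and 8 months in naive WT mice, and 56 ± 1.78 and 53.8 ± 6.96% in trained KI mice. Near the stop codon it was 28.8 ± 1 and 24.9 ± 4.58% in naive WT and 26.5 ± 1.93 and 25.1 ± 4.48% in trained KI mice. Lower means at 8 months were therefore not particular to trained WT mice. A 50 bp window around the summit held GGAC on the transcribed strand in 25.7, 26.3 and 24.8% of summits at 5 months and in 25.3, 24.1 and 22.9% at 8 months (exact permutation p = 0.2). In windows moved by 1000 bp within the same gene it was present in 14.1 ± 0.26 and 14.5 ± 0.173%, below every animal's value at the summits. The move was along the genome, so the windows of exonic summits could fall in introns. By part, the mean share at 5 and 8 months was 29.5 and 27.3% for summits in CDS or UTRs. For summits in introns it was 16.4 and 17%, nearer to the moved windows.

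**Figure D3:**
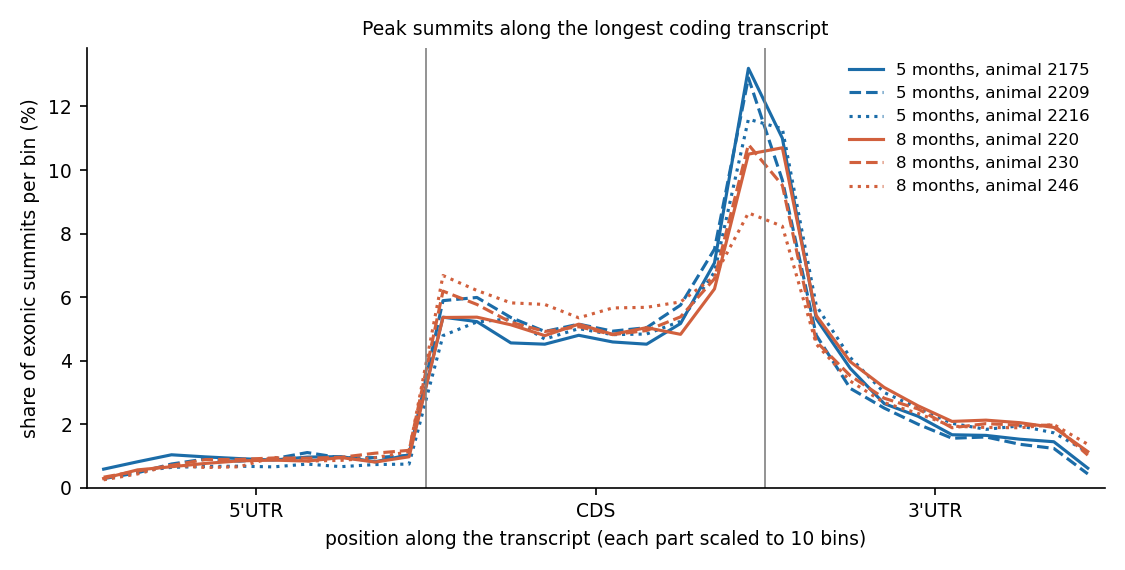
Share of exonic summits (%) in 30 bins along the longest coding transcript, with 5'UTR, CDS and 3'UTR each scaled to 10 bins, 1 line per trained WT animal. All 6 lines are highest next to the stop codon, where the last bin of the CDS holds 13.2% in animal TR-2175 and 8.65% in animal TR-246.

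Joining all peaks of the 6 animals by at least 1 bp gave 52545 common regions. All 6 animals called 15018 of them (28.6%). Regions called in 3 of 3 animals at 8 months and 0 of 3 at 5 months numbered 1329, which is 2.53% of all regions. The opposite pattern was found in 13 regions, or 0.0247%. In at least 2 of 3 animals, 22903 regions were called at 5 months and 32639 at 8 months. In the equal-length lists 278 regions (0.757%) were called at 8 months only and 193 (0.526%) at 5 months only, and 20018 and 20060 were called in at least 2 of 3 animals. Leaving out 1 animal, so that 3 were set against 2, gave 1990 to 3925 regions at 8 months only and 29 to 177 at 5 months only.

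**Figure D4:**
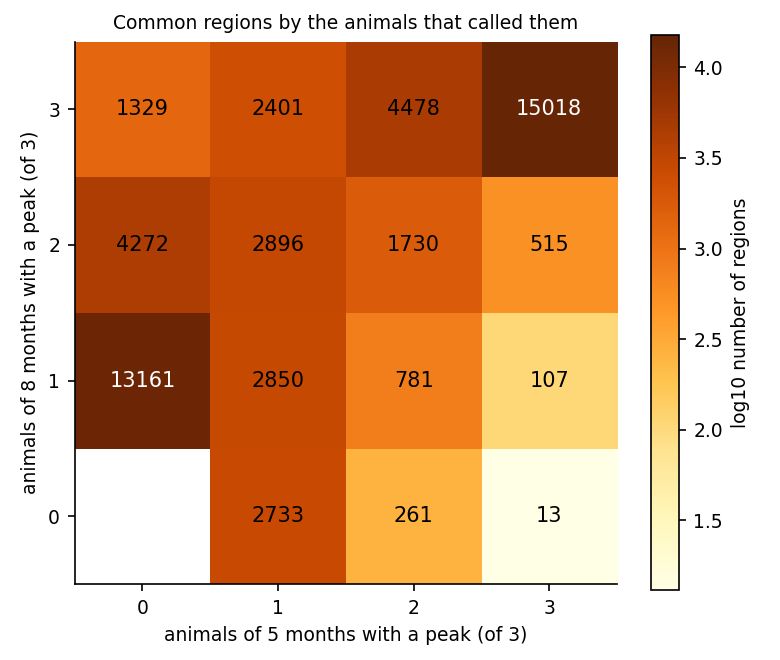
Number of common regions by how many of the 3 animals of 5 months (horizontal) and of 8 months (vertical) called a peak in them; colour is the log10 of the number. The largest classes are the 15018 regions of all 6 animals and the 13161 called in 1 animal of 8 months alone, and the corner of 3 animals of 5 months and none of 8 months holds 13.

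Of the peaks of the 5-month lists, 87.7% on average overlapped a peak of any given 8-month animal, while 61% of the peaks of the 8-month lists overlapped one of a 5-month animal. Within an age the means were 75.6 and 76.1%. In the equal-length lists these shares were 75.2% within 5 months, 74% within 8 months, and 74 and 73.7% between the ages, so animals of different age then shared about as many peaks as animals of the same age. The regions of all 6 animals held 16580 ± 647 peaks per animal at 5 months and 17334 ± 1120 at 8 months. The rest of each list held 9187 ± 2736 and 20574 ± 4722, of which 911 ± 153 and 4387 ± 2537 were called in no other of the 6 animals.

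Regions called at 8 months only were weaker and narrower than those shared by all animals, and their positions in the transcript were nearer to those of all common regions. Their median fold enrichment was 4.11 and their median width 287 bp, against 5.19 and 824 bp in the regions of all 6 animals. A width is that of the joined peaks, so regions that join peaks of more animals are wider in part by construction. By the position of the strongest summit, 33% lay in the CDS, 28.8% in introns, 14.3% in 3'UTRs and 6.32% in 5'UTRs. Over all 52545 common regions these shares were 27.9, 30, 15 and 5.03%, close to those of the 8-month only regions, while in the regions of all 6 animals they were 39.6, 15.5, 25.3 and 5.01%. Where the summit was in an exon of the longest coding transcript, 57.1% of the 8-month only regions were in internal exons, of median length 216 bp, and 31% in last exons. For the regions of all 6 animals, 28.9% were in internal exons, of median length 759 bp, and 60.3% in last exons. Over all common regions, 41.2% were in internal exons, of median length 270 bp, and 46.1% in last exons. No test was made between these sets, since a region is in them by its calls.

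The 13 regions called at 5 months only had 7 in introns (53.8%, beside 30% of all common regions), 2 in the CDS (15.4%, beside 27.9%), 1 in a 5'UTR and none in 3'UTRs. In naive WT mice, 53% of the 1329 regions of 8 months only were called in more animals at 8 than at 5 months and 16.9% in fewer, beside 27 and 17.4% of all common regions. In trained KI mice the 2 shares were 35.1 and 31.9%, beside 17.2 and 22.5%. The first share was thus above that of all regions in both, and in KI mice the second was as well.

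Of the 39646 regions within exactly 1 protein-coding gene, 1063 (2.68%) were called at 8 months only, in 957 genes, and 10 (0.0252%) at 5 months only. Most of these 957 genes were not without a peak in the younger mice: 78.4% had a peak elsewhere in all 3 animals of 5 months, and 11.1% had none in any. Of the 11482 genes with a summit in any of the 6 animals, 8689 to 9156 had a peak in a given animal of 5 months. A peak in all 6 animals was found in 65.9% of them. The share with a peak in all 3 younger animals was not counted over all genes, so 78.4% is not read as particular to these genes. The 8 genes named first are those whose region was also held by all 3 older animals among the best peaks and had the highest least significant q-value.

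Enpp4, an ectonucleotide pyrophosphatase, had such a region in a 171 bp internal coding exon (chr17:44238282-44238547), with a fold enrichment of 10.1 in animal TR-220, 7.46 in animal TR-230 and 11.1 in animal TR-246 and no peak at 5 months. Frmd4a, a scaffold protein of cell polarity, had 9.41, 5.22 and 11.6 in the same order over a 165 bp internal exon (chr2:4523028-4523281). Pcnt, which codes for the centrosomal scaffold pericentrin, had 12.8, 7.1 and 8.62 over a 207 bp internal exon (chr10:75881119-75881441). All 3 regions lay above the median of 4.11 for regions called at 8 months only in each older animal. Since they were chosen by their q-values, this is in part set by the choice.

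Map3k10, a mixed-lineage kinase upstream of JNK, had 5.64, 5.86 and 4.7 over a 149 bp internal exon (chr7:28449990-28450241). B4galnt4, a glycosyltransferase, had 4.59, 4.24 and 5.21 over a 104 bp internal exon (chr7:148249596-148249796). Plcl1, a catalytically inactive phospholipase C relative that takes part in GABA receptor trafficking, had 6.37, 5.18 and 4.81 in a 183 bp last exon of its coding sequence (chr1:55807979-55808285). These 6 regions lay in coding exons of 104 to 207 bp.

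Odz4, a teneurin adhesion molecule, had 4.04, 4.79 and 4.2 in an intron (chr7:103852328-103852530), and Jakmip1, which binds microtubules and GABA receptors, had 3.62, 3.72 and 3.65 in a 5'UTR (chr5:37419566-37419867). The Jakmip1 region was called in 2 of 3 naive WT mice at 5 months and 3 of 3 at 8 months, and in 3 of 3 trained KI mice at each age. The Frmd4a region was called in all 3 naive WT mice at either age. B4galnt4 was called in 0 of 3 and 1 of 3 naive WT mice and in 0 of 3 and 2 of 3 trained KI mice at 5 and 8 months. Of the 8 regions, 6 (all but B4galnt4 and Odz4) were called in at least 2 of 3 animals at 5 months in both naive WT and trained KI mice.

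The regions called at 5 months only that met the same rule were 6. Pkia, an inhibitor of protein kinase A, had a fold enrichment of 4.62 in animal TR-2175, 7.56 in animal TR-2209 and 5.89 in animal TR-2216 in an intron (chr3:7369493-7369761). Aplf, a factor of DNA end joining, had 6.21, 8.44 and 6.86 over a 338 bp internal coding exon (chr6:87596243-87596520). Zdhhc4, a palmitoyltransferase, had 3.87, 4.41 and 3.92 in a 5'UTR (chr5:144090284-144090781). Cenpf, a kinetochore protein, had 6.46, 5.23 and 7.15 in a 2832 bp internal exon (chr1:191477849-191478320). The others were intronic regions of Nol4 (6.39, 9.19 and 8.33) and of Arhgap26, a GTPase-activating protein (6, 6.55 and 8.58). The Aplf region was called in none of the naive WT mice at 5 months and in 3 of 3 at 8 months, the opposite of the trained mice. The Nol4 region was called in 2 naive WT mice and 1 trained KI mouse at 5 months and in none of either at 8 months.

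By gene rather than by region, 11482 protein-coding genes had a summit in any of the 6 animals. Genes with a peak numbered 9156, 8689 and 9008 at 5 months and 9739, 10289 and 10311 at 8 months (exact permutation p = 0.1, adjusted p = 0.233), and each held 2.22 ± 0.122 and 2.85 ± 0.371 peaks on average. A peak in all 3 older and no younger animal was found in 139 genes (1.21%), and the reverse in 3 (0.0261%). The strongest peak of the 139 was in the CDS in 48, the 3'UTR in 44, an intron in 39 and the 5'UTR in 8, and 75 of them had a single peak in each older animal. In the equal-length lists the mean number of genes with a peak was 8236 at 8 months and 8480 at 5 months, so the order of the means turned, with overlap. Peaks per gene in these lists were 2.09 ± 0.0617 at 5 months and 2.17 ± 0.0799 at 8 months, also with overlap.

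Among the 139, chosen for naming after their values were seen, was Myo6, a minus-end directed myosin of endocytosis (3.15, 5.2 and 2.97 as its highest fold enrichment in animals TR-220, TR-230 and TR-246). Rbm19, a factor of ribosome biogenesis, had 5.04, 8.96 and 14.2, and Sf3b3, a spliceosome subunit, 4.01, 3.73 and 5.07. The 3 genes with a peak at 5 months only were Kcnj11, a subunit of ATP-sensitive potassium channels (3.65, 6.14 and 4.85 in animals TR-2175, TR-2209 and TR-2216), Gm10226 (8.86, 5.37 and 12.7) and Zdhhc4.

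Numbers of peaks per gene were higher in every older than in every younger animal in 1071 of the 11482 genes (9.33%), and lower in 6 (0.0523%). The mean was higher at 8 months in 73.1% of the genes. The largest difference in means among these genes was in Gm20388, with 41, 43 and 45 peaks at 5 months and 57, 60 and 72 at 8 months, all of it in introns. Dmd, which codes for dystrophin, had 18, 17 and 16 against 27, 25 and 38, also in introns. Pcnt had 6, 8 and 7 against 10, 16 and 22, with the difference mostly in the CDS. Nrxn2, a presynaptic neurexin, had 9, 6 and 7 against 13, 18 and 22, in introns and CDS. Numbers were not scaled to the length of the gene and were not counted anew in the equal-length lists.

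Strength was compared in the 15018 regions that all 6 animals called, with limma on the log2 fold enrichment. After Benjamini-Hochberg adjustment no region was higher (0%) and none was lower (0%) at 8 months, and the lowest adjusted p was 0.472, which does not show that the regions did not differ. At an unadjusted p under 0.05, 360 regions (2.4%) were higher and 435 (2.9%) lower. The median difference was 0.01 on the log2 scale, and 86.2% of the regions differed by less than 0.5, with a median standard error of 0.31. The fitted differences ranged from -1.64 to 1.29, and 122 regions exceeded 1 in size. Without normalization between animals the median was 0.124, and 682 regions were higher and 207 lower at an unadjusted p under 0.05, so the balance of directions at that level depended on the normalization.

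**Figure D5:**
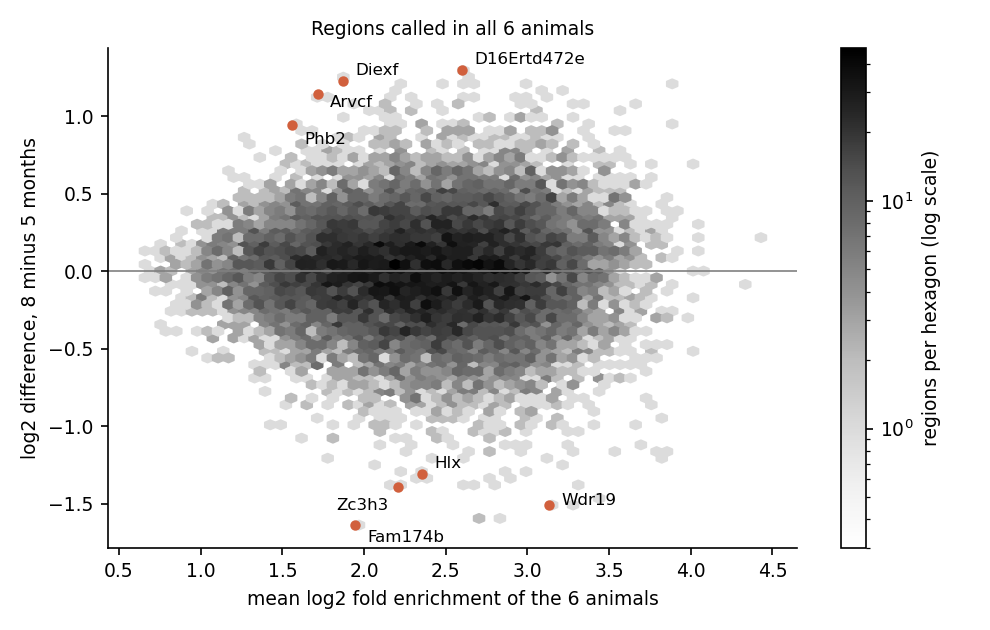
Difference in log2 fold enrichment (8 minus 5 months, vertical) against its mean over the 6 animals (horizontal) for 15018 regions, shaded by the number of regions per hexagon on a log scale. The 4 regions with the lowest p in each direction, none past the adjusted threshold, are named and lie at 0.94 to 1.29 and at -1.64 to -1.31.

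The regions nearest to the threshold are given as values. Diexf, a nucleolar protein, had a fold enrichment of 2.55, 2.41 and 2.03 at 5 months and 5.4, 5.71 and 6.46 at 8 months in a 411 bp internal coding exon (log2 difference 1.23, SE 0.237, limma adjusted p = 0.472). Arvcf, a catenin of cell junctions, had 2.38, 2.07 and 2.02 against 5.56, 4.76 and 4.97 in its 3'UTR (1.14, SE 0.226). Phb2, the inner mitochondrial membrane protein prohibitin-2, had 2.09, 2.09 and 2.04 against 4.44, 3.74 and 4.62 in its 3'UTR. D16Ertd472e had 4.36, 2.95 and 4.17 against 8.3, 10.6 and 11.3 in its last coding exon. These 4 were chosen by their p-values, so their separation by age is set by the choice.

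In the other direction, Fam174b had 4.19, 8.23 and 7.47 at 5 months and 2.72, 2.1 and 1.98 at 8 months in its 3'UTR (log2 difference -1.64, SE 0.324, limma adjusted p = 0.472). Zc3h3, a zinc finger protein of mRNA export, had 9.14, 6.09 and 6.66 against 2.6, 2.88 and 3.41 in a 1309 bp internal coding exon. Hlx, a homeobox transcription factor, had 9.53, 6.63 and 7.19 against 3.23, 3.32 and 3.5 in its last exon. Wdr19, a part of the intraflagellar transport machinery of cilia, had 19.5, 13.2 and 11.1 against 5.22, 4.8 and 6.41 in an intron. Input libraries were not analysed here, so these ratios cannot be set against the amount of each mRNA.

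Activity-regulated transcripts had peaks at both ages. Fos had 1, 2 and 1 peaks at 5 months and 2, 2 and 3 at 8 months, and its region of all 6 animals had a fold enrichment of 3.01, 2.96 and 2.94 against 3.96, 5.01 and 4.62 (log2 difference 0.51, SE 0.239, limma adjusted p = 0.93). Arc, the cytoskeletal protein of recently active synapses, had 2.49, 3.11 and 2.63 against 2.37, 2.96 and 2.86 over the region printed above (log2 difference -0.09). Npas4, a neuronal activity transcription factor, had 4.46, 4.38 and 6.12 against 5.71, 6.1 and 7.37 in a 1430 bp coding exon (0.26). Bdnf, the brain-derived neurotrophic factor, had 6.08, 4.86 and 4.07 against 4.1, 5.14 and 4.57 in its last exon (-0.22). Egr1 differed by -0.12 and 0.15 in its 2 regions. The Fos values did not overlap between the ages, those of Arc, Npas4 and Bdnf did, and no region of these genes passed the adjusted threshold. How many of all the regions tested were separated by age in this way was not counted, so the Fos values are a description.

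Homer1, a postsynaptic scaffold with an activity-induced short form, also had a region called at one age. A region in its 157 bp internal coding exon (chr13:94111586-94111816) was called at 8 months only, with a fold enrichment of 5.76, 4.29 and 2.53 in animals TR-220, TR-230 and TR-246. The same region was called in 2 of 3 naive WT mice at each age and in 3 and 2 of 3 trained KI mice at 5 and 8 months. The 3 regions of Homer1 that all 6 animals called differed by -0.51, -0.32 and 0.19 on the log2 scale, and none passed the limma test after adjustment.

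Over the 40 immediate-early genes, of which 37 to 39 had a peak in each animal, 4 of 116 regions were called at 8 months only (3.45%, beside 2.68% of all regions of a single gene) and none at 5 months only. Beside Homer1 these were in Egr3, a zinc finger transcription factor (3.62, 3.46 and 5.48), Fosl2 of the AP-1 family (2.6, 3.24 and 2.62) and Nptx2, a pentraxin that clusters AMPA receptors (2.97, 8.41 and 2.47). The list's 53 regions of all 6 animals had a median log2 difference of 0.00425, beside 0.00982 over all genes.

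For glutamate receptor genes, 3 of 325 regions were called at 8 months only (0.923%), among them Grin2a (1.81, 2.17 and 2.04 in its 5'UTR) and Grid1 (2.54, 4.79 and 3.36 in its 3'UTR). Grin2b, the NMDA receptor subunit 2B gene, had 9, 9 and 7 peaks at 5 months and 9, 10 and 15 at 8 months, and its strongest region, in an intron, had 25, 12.3 and 10.5 against 9.98, 8.71 and 16. Postsynaptic genes had 10 of 501 regions at 8 months only (2%), among them Cacng2, an AMPA receptor auxiliary subunit (3.27, 2.81 and 3.84), and Agap2 (2.05, 2.63 and 2.06). Camk2a, the synaptic kinase, had 6.52, 3.26 and 4.1 at 5 months against 2.85, 2.38 and 2.62 at 8 months in an intron (log2 difference -0.84, SE 0.269, limma adjusted p = 0.81). These values did not overlap, but such a separation was not counted over all the regions tested.

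Presynaptic genes had 10 of 344 regions at 8 months only (2.91%), among them Sv2b (4.32, 5.35 and 9.27), Pclo (5.19, 3.79 and 6.22) and Nrxn2 (6.98, 8.29 and 3.8), all 3 in introns. For GABA synapse genes it was 3 of 135 (2.22%), among them Gphn (6.09, 5.73 and 8.77) and Gabbr2 (4.87, 4.6 and 3.92), and for voltage-gated channel genes 5 of 410 (1.22%), such as Cacnb1 (2.94, 3.53 and 2.4). CREB and TrkB pathway genes had 6 of 147 (4.08%), among them Ntrk2, the BDNF receptor (2.22, 2.72 and 2.33 in its 3'UTR), and Pik3r1 (3.96, 11.2 and 5.12). Splicing factor genes had 9 of 202 (4.46%), such as Luc7l2 (2.35, 2.52 and 2.13), Mbnl2 (3.03, 3.64 and 2.86) and Elavl3 (2.29, 3.49 and 3.02). None of these lists had a region at 5 months only. The shares lay on both sides of the 2.68% of all regions, and with counts of 3 to 10 they are descriptions. Among these 8 lists, 1 region of the presynaptic and 1 of the splicing list were also held among the best peaks of all 3 older animals, and none of the other lists, beside 200 of the 1063 regions of all genes.

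Of genes with a peak in any animal, mean numbers of peaks were 1.35 to 1.65 times as high at 8 as at 5 months in these synaptic, channel, signalling and splicing lists, beside 1.46 over all genes. The 26 genes of the m6A machinery, of which 15 to 17 had a peak in each animal, had no region at either age only (0 of 73). Those with a peak in any animal had 2.14 and 2.79 peaks per gene at 5 and 8 months (ratio 1.3). Fto, which codes for a demethylase, had 3, 2 and 4 peaks at 5 months and 2, 5 and 7 at 8 months, and its coding region of all 6 animals had 3.6, 2.76 and 1.96 against 3.31, 2.78 and 2.44. No peak was called in Mettl3 in any of the 6 animals.

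The difference in peak number was set against that of the other mice. At 5 and 8 months the mean was 25767 and 37908 in trained WT mice, 32422 ± 2002 and 34843 ± 6008 in naive WT mice, and 35543 ± 3080 and 33735 ± 3978 in trained KI mice. The trained WT mice of 5 months had the lowest mean of these 6 groups. The change in trained WT exceeded that in naive WT by 9720 peaks (exact permutation of the ages within each pair, p = 0.195) and that in trained KI by 13949 (exact permutation p = 0.045). Over the 10 such differences, which share the trained WT animals, both adjusted p-values of the exact permutation tests were 0.325. The differences in width, covered length and the CDS and intron shares had exact permutation p-values of 0.09 to 0.74.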

How the data were processed

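The authors fragmented total hippocampal RNA, immunoprecipitated it with an m6A antibody, aligned reads to mm9 with STAR 2.7.3a, kept unique reads outside repeats and called peaks per animal against its input with MACS2 2.2.6 (versions per the submitters' processing notes). The deposited peak lists give for each peak a fold enrichment, which is a linear ratio of m6A-IP over input, and the -log10 p-value and -log10 q-value of the authors' peak caller. The lists hold no read counts, so depth is unknown. The 10 tables of the authors' own comparisons hold differential peaks of other pairs of groups and were not used, and input libraries were not analysed here.

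Groups were taken from the labels, with 3 animals each, and each test treats the animals as replicates. Peaks sharing at least 1 bp were joined into common regions. Summits were placed on GENCODE vM1 for the same build, with CDS taking precedence over 3'UTR, then 5'UTR and last introns, and exon positions refer to the longest coding transcript of genes that alone cover the summit. Sequences came from the mm9 genome (NCBIM37). Values per animal were compared by a 2-sided exact permutation test with Benjamini-Hochberg adjustment over 14 values. The log2 of the highest fold enrichment in each region called by all 6 animals was quantile normalized. It was tested with limma 3.58.1 (lmFit, eBayes with a trend) in R 4.3.3, at an adjusted p of 0.05. On simulated data with 200 planted changes the script recovered 0 of them at a log2 change of 0.5 or 1. At a log2 change of 2 it recovered 137, with 4 false calls. The simulated noise of a region was its spread over all 6 animals, which includes any age difference, so recovery may be understated. Other steps used python 3.11.15 and pysam 0.24.0. Alternatives were a -log10 q of at least 5, the same number of best peaks, summits with 100 bp to each side, calls that cover 50% of a region, other normalizations and leaving out each animal.

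Named genes were, in each direction, up to 8 with a region of 3 against 0 animals that all 3 animals also held among their best peaks, ordered by the lowest -log10 q, the 4 with the lowest limma p, members of the gene lists with a region of 3 against 0 animals, up to 4 per list, and fixed genes such as Fos, Arc and Bdnf. The members and the 21 gene lists were chosen with earlier results of these data known. Of the 476 list members, 474 were matched to the annotation. Some genes that the rule names are not reported here.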

Additional observations from a re-analysis of the deposited data

Results flagged for a closer look

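The change in the number of peaks from 5 to 8 months differed between trained WT and trained KI mice by 13949 peaks (12141 more at 8 months in trained WT, and a mean change of -1808 in trained KI), by an exact permutation test of the difference itself (400 arrangements, p = 0.045). After adjustment over 10 differences it did not pass (adjusted p = 0.325, exact permutation). With peaks of -log10 q of at least 5 the difference was 10071 (exact permutation p = 0.025, adjusted p = 0.25).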

How the results depend on the processing

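No paired analysis was possible because no animal was measured at both ages and input libraries were not analysed here. Differences are 8 minus 5 months. In the equal-length lists of best peaks the direction turned for covered length (-0.345 Mb), genes with a peak (-244) and the shares of summits in the CDS (1.08 percentage points), 3'UTR (1.51), introns (-1.57) and outside genes (-0.805). At a -log10 q of at least 5 it turned for the 3'UTR share (0.172).

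Leaving out each animal in turn gave differences from -3.83 to 1.31 for the CDS, -1.08 to 0.0065 for the 3'UTR, -0.84 to 0.263 for the 5'UTR, -0.402 to 2.43 for introns and -1.03 to 3.23 outside genes. The CDS, 5'UTR, intron and outside shares turned without TR-2209, and the 3'UTR share without TR-2216. Why was not tested.

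Regions called at 8 months only numbered 705 at a -log10 q of at least 5 and 278 in the equal-length lists, and 1990 to 3925 without 1 animal, where a region needs fewer animals. Those at 5 months only numbered 36, 193 and 29 to 177 in the same order, 78 with summits extended by 100 bp and 60 where calls covered 50% of the region. Regions in at least 2 of 3 animals at 8 months numbered 20060 in the equal-length lists. The limma test called 0 regions in each of its alternatives, with the lowest adjusted p between 0.212 and 0.937. Read depth is unknown, so its part in the number and width of peaks was not tested.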

Other observations

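Marker lists of cell types were counted in the same way. Of oligodendrocyte markers, 12, 13 and 11 genes had a peak at 5 months and 12, 14 and 15 at 8 months, and 3 of 73 regions (4.11%) were called at 8 months only, in Mbp, Cnp and Bcas1, beside 2.68% of all regions of a single gene, the share against which each count here is read. Mbp, which codes for myelin basic protein, had 7, 8 and 9 peaks at 5 months and 11, 10 and 12 at 8 months, without overlap, as in 9.33% of all genes. Over all genes the number of peaks was 1.46 times as high at 8 months. Microglia markers had no region at either age only (14 regions), and neither did endothelium (25) nor choroid plexus markers (14), for which Ttr had no peak in any of the 6 animals. Astrocyte markers had 1 of 37 at 8 months only, in Gjb6, a connexin (3.81, 3.12 and 3.47). Striatum markers, a check on dissection, had 2 of 57, and 10, 10 and 10 genes with a peak at 5 months against 11, 11 and 11 at 8 months.

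Markers of hippocampal neurons had peaks at both ages: 6 of 8 CA1 genes in each of the 6 animals, and 9, 9 and 10 of 13 dentate gyrus genes at 5 months against 10 in each animal at 8 months. Beside the 2.68% of all regions, those called at 8 months only numbered 1 of 26 (3.85%) for CA1, 0 of 41 for CA3, 4 of 86 (4.65%) for dentate gyrus and 2 of 97 (2.06%) for interneuron markers, 0 of 36 for oligodendrocyte precursor markers and 0 of 19 for genes of oxidative phosphorylation. Wfs1 of the CA1 list had a region at 8 months only in a 171 bp internal coding exon (4.42, 4.34 and 2.1). Peaks do not measure the amount of a transcript, and the part of cell composition in any of these values was not tested.

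The regions of all 6 animals that reached an unadjusted p under 0.05 in trained WT mice were looked up in naive WT mice, where 57.7% of 300 higher regions and 39.2% of 334 lower regions were higher at 8 months, beside 50.9% of all. In trained KI mice the shares were 45.8% of 343 and 49.1% of 375, beside 51.1%.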
